A study of Mus musculus with 5 samples.

Results

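The genes described here encode the nuclear subunits of the mitochondrial respiratory chain and ATP synthase. They were taken from the table of all genes as protein-coding entries whose symbol begins with Nduf, Uqcr, Cox4 to Cox8 or Atp5, or is Sdha, Sdhb, Sdhc, Sdhd, Cyc1 or Cycs. The rule gave 94 of 40624 entries, and 91 had enough reads to be tested. Of the tested genes, 36 encode subunits of complex I, 4 of complex II, 10 of complex III or cytochrome c, 17 of complex IV and 15 of complex V. The other 9 carry a matching symbol without being a subunit, among them the complex I assembly factors Ndufaf1, Ndufaf2, Ndufaf3 and Ndufaf4. Cox4nb, which is named for its place beside Cox4i1 and encodes a protein of the endoplasmic reticulum membrane, is also one of the 9.

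RNA was sequenced from atria of C57BL/6 mice at postnatal day 1. All animals carried SLN-Cre, a Cre recombinase driven from the gene of sarcolipin, which is active in atrial muscle cells. The 3 control libraries (2, 4 and 6) had 1 floxed and 1 wild-type allele of Nkx2-5 (Nkx2-5-flox/+), and the 2 mutant libraries (5 and 7) had both alleles floxed (Nkx2-5-flox/flox). The controls are therefore not wild type, whole atria also hold cells in which this Cre is not active, and the labels do not say whether each library was a separate animal, so the p-values speak only for the spread among these libraries.

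Complexes I and II pass electrons from NADH and succinate to ubiquinone, complex III hands them to cytochrome c, and complex IV (cytochrome c oxidase) gives them to oxygen. The proton gradient built on the way drives ATP synthase, complex V. Mature heart muscle draws most of its ATP from this chain. Several small subunits of cytochrome c oxidase exist as a ubiquitous form and a form restricted to heart and skeletal muscle, and the muscle forms replace part of the ubiquitous forms as the heart matures.

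The libraries held 58.5 to 60.9 M gene counts in the controls and 69.6 to 78.8 M in the mutants, and the 94 genes took 3.48 to 4.00% of them. Nkx2-5, a homeodomain transcription factor of the heart, checked the labels: its level was 71.3 to 76.8 CPM (counts scaled to a common library total) in the controls, whereas mutants 5 and 7 had 5.79 and 5.21 CPM. Control 6 stood apart for the respiratory chain. It lay below the control mean for 89 of the 91 tested genes, with a median difference of -0.08 on the log2 scale, and was the lowest of all libraries for 72. Mutant 5 was the highest of all libraries for 44. Results that rest on control 6 are therefore also given without it.

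Most of the chain differed little between the groups, and the changes that passed the test lay in cytochrome c oxidase and complex II. The 3 muscle isoforms Cox8b, Cox6a2 and Cox7a1 fell in the mutants, and Cox6a1, the ubiquitous partner of Cox6a2, rose together with Sdhb, the iron-sulfur subunit of complex II. Calls were made with the quasi-likelihood test of edgeR at a threshold of 0.05, after Benjamini-Hochberg adjustment over 17835 tested genes. In this fit 2 of 91 genes were called higher, against 3.02% of all tested genes, and 3 of 91 were called lower, against 3.57%. In either direction the background was 6.58%. The share of calls among respiratory chain genes was thus near the background, and 4 of the 5 calls lay in complex IV. The authors' deposited table gives an adjusted p under 0.05 to 5 of the 94 genes, and the same 5 were called here.

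**Figure D1:**
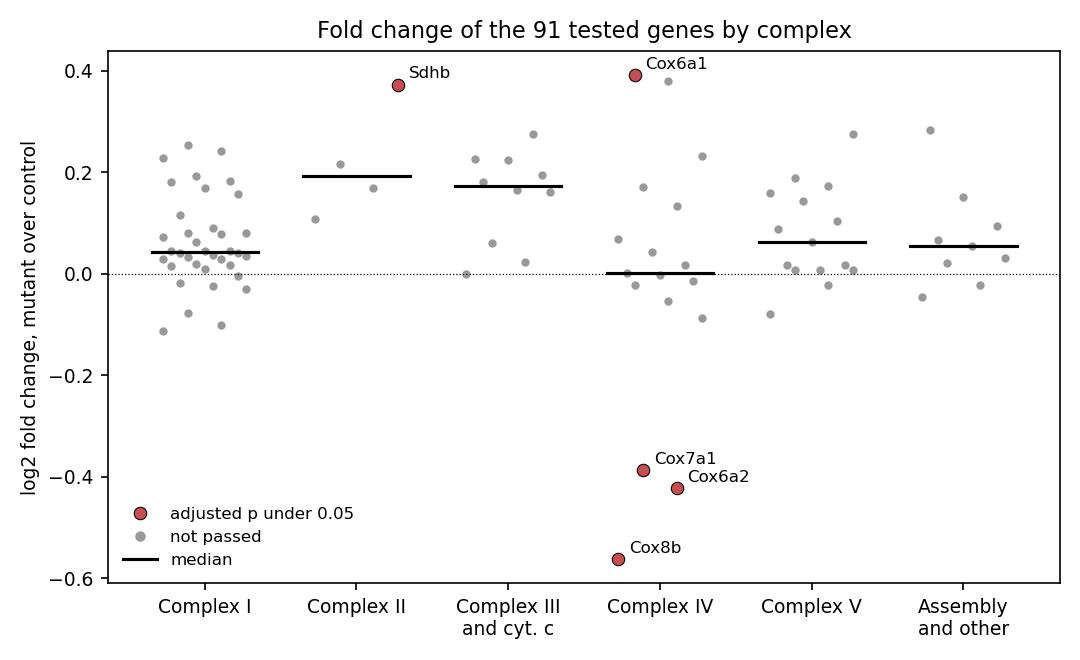
Each point is 1 of the 91 tested genes, placed by complex, with its log2 fold change of mutant over control on the vertical axis and a bar at the median of the complex. Red points passed adjusted p under 0.05, and 4 of the 5 lie in complex IV, with Cox8b at -0.56 and Cox6a1 at 0.39.

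Cytochrome c oxidase holds 3 pairs of muscle and ubiquitous isoforms that were measured here. Cox8b, the muscle form of subunit 8, which brown fat also uses, is on chromosome 7 (coding span 148084887 to 148086241, mm9). Its level was 165, 142 and 142 CPM in controls 2, 4 and 6, against 96.6 and 106 CPM in mutants 5 and 7. The groups did not overlap, and the fitted level was 1.48-fold lower, a fall of 0.56 ± 0.08 (SE) on the log2 scale with an adjusted p of 0.0068. Its partner Cox8a, on chromosome 19 (7289879 to 7292002, mm9), had 400, 406 and 373 CPM in the controls, against 482 and 441 CPM in the mutants. Both mutant values of Cox8a lay above the controls, but the log2 difference of 0.23 ± 0.08 did not pass (adjusted p = 0.12).

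Cox6a2, the muscle form of subunit 6a, is also on chromosome 7 (135349243 to 135349809, mm9) and was the most abundant of the muscle forms. It had 666, 658 and 605 CPM in the controls, against 488 and 471 CPM in the mutants. It was 1.34-fold lower, with a log2 difference of -0.42 ± 0.08 and an adjusted p of 0.015. Its exons share 70 bases with Itgad on the opposite strand in the reference annotation, where Itgad itself held 19 to 46 counts per library. Cox6a1, the ubiquitous form, on chromosome 5 (115795852 to 115798959, mm9), moved the other way. It had 365, 386 and 355 CPM in the controls, against 514 and 452 CPM in the mutants, a log2 rise of 0.39 ± 0.08 with an adjusted p of 0.025.

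Cox7a1, the muscle form of subunit 7a, is the third gene on chromosome 7 (30969250 to 30970986, mm9). It had 142, 137 and 126 CPM in the controls, against 108 and 98.3 CPM in the mutants. Both mutants lay below every control, and the log2 fall was 0.39 ± 0.07 with an adjusted p of 0.018. Cox7a2, its ubiquitous partner, had 336, 361 and 321 CPM in the controls, against 330 and 338 CPM in the mutants. These values overlapped, and the log2 difference was -0.02 ± 0.07 (adjusted p = 0.91).

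The calls differed in how far they rested on single libraries. Cox8b was called in all 12 alternative fits, with adjusted p of at most 0.025. Cox6a2 lost its call without control 2 or control 4 (adjusted p up to 0.078), and Cox7a1 without control 2, control 4 or mutant 7 (up to 0.088). Cox6a1 lost its call without control 2, control 4 or control 6 (up to 0.11), so the loss was not particular to the low control 6. Over all genes the calls also fell from 1174 to 529, 534 and 746 without control 2, control 4 and control 6.

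The balance within each pair was also compared as the share of the muscle form in the pair, with counts divided by the deposited gene length. This share does not depend on how the libraries were scaled. For subunit 6a the muscle form made up 66.1, 64.6 and 64.5% in controls 2, 4 and 6, against 50.3 and 52.6% in mutants 5 and 7, so that the pair stood almost level in the mutants. For subunit 8 the muscle form made up 38.3, 34.4 and 36.5% in the controls, against 23.2 and 26.5% in the mutants. For subunit 7a the shares were 46.6, 44.0 and 44.9% in the controls, against 40.4 and 37.6% in the mutants. In each of the 3 pairs both mutants lay below all controls.

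On the log2 scale the ratio of muscle to ubiquitous form changed by -0.81 for subunit 6a, by -0.79 for subunit 8 and by -0.37 for subunit 7a. An exact two-sided permutation test gave p = 0.1 for each pair, which is the smallest p that 3 against 2 libraries allow, and 0.1 after adjustment over the 3 pairs. These ratios use the same counts as the single-gene calls and are not separate evidence. The summed level of a pair changed less than its balance. For subunit 6a the sum was 1502 ± 67.2 CPM per kilobase in controls (SD, n = 3) and 1417 ± 81.2 in mutants (SD, n = 2), with an exact permutation p of 0.3. For subunit 8 it was 1133 ± 55.6 and 1126 ± 34.9 CPM per kilobase (exact permutation p = 0.9), and for subunit 7a 821 ± 42.5 and 727 ± 11.2 (exact permutation p = 0.2). The sums of subunit 7a lay lower in both mutants (734 and 719) than in all controls (836, 853 and 773). For subunits 6a and 8 the sums overlapped between the groups.

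**Figure D2:**
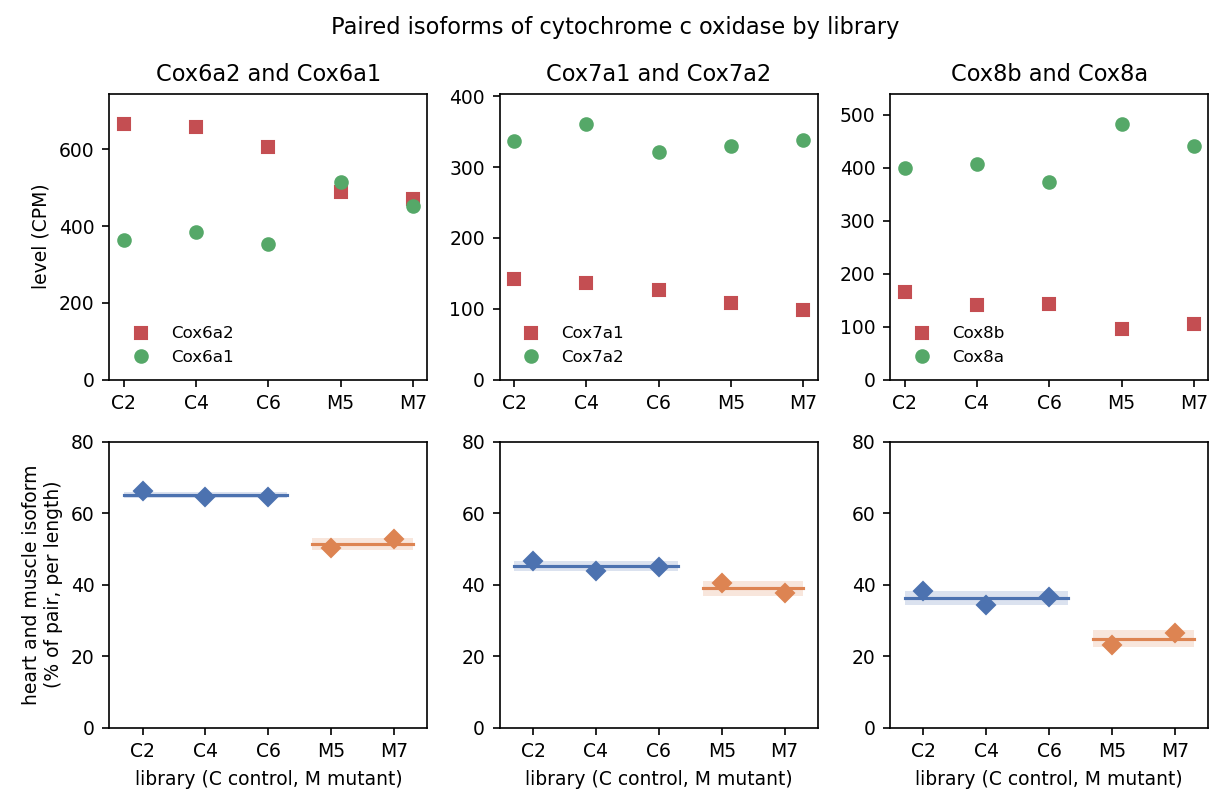
The upper panels plot CPM of each isoform in each library (C control, M mutant), with squares for the heart and muscle form and circles for the ubiquitous form. The lower panels plot the muscle form as a percentage of the pair per gene length, with lines at group means and bands of 1 SD, and show both mutants below all 3 controls in each pair, most clearly for subunit 6a (65.1% against 51.5%).

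The promoters of 4 of these genes are shown because the ratio of muscle to ubiquitous form fell in the mutants and the start regions of the forms differ in sequence. Each window runs from 250 bases before to 50 bases after the RefSeq start (GRCm38.p6) and is written 5′ to 3′ along the gene. Cox8b is at chr7:140900397-140900696 (minus strand), Cox7a1 at chr7:30183921-30184220 (plus strand), Cox6a1 at chr5:115348909-115349208 (minus strand) and Cox8a at chr19:7217567-7217866 (minus strand), and Cox6a2 had no entry, so that 2 of the 3 muscle forms are shown. Capitals mark matches to the motifs described below, on either strand.
Cox8b: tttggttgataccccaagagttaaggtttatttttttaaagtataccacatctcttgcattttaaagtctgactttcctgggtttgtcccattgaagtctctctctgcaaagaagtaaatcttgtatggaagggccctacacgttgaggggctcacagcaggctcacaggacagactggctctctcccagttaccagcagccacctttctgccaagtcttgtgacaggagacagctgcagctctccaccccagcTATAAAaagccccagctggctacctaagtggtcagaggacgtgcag
Cox7a1: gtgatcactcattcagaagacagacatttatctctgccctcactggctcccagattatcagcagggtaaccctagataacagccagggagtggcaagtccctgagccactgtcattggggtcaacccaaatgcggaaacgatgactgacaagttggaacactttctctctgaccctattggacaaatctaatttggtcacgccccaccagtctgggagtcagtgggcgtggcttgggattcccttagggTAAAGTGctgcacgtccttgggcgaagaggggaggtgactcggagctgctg
Cox6a1: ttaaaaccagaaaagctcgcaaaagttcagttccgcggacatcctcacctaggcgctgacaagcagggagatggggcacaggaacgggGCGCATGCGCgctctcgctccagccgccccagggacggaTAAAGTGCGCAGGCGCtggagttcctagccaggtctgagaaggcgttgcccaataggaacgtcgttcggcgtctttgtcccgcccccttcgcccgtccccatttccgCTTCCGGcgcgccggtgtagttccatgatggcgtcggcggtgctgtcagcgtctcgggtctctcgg
Cox8a: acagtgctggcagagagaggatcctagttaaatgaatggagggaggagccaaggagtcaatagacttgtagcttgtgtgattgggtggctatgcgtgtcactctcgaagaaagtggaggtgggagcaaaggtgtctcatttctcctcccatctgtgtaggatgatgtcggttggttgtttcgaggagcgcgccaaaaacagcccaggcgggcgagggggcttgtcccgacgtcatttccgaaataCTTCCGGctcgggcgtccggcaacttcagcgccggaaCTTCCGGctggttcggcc

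The 7 short motifs were searched on both strands and were chosen after the expression values were known, and the letters for NRF1 and MEF2 were revised after a first search had been seen. They were the NRF1 motif GCGCNTGCG, the GABP motif CCGGAAG, the YY1 motif AAGATGGCG, the ERR motif TNAAGGTCA, the NKX2-5 motif TNAAGTG, the MEF2 motif CTANTTNTA and the TATA box TATAAA. NRF1 and GABP (also called NRF2) are factors known for driving respiratory chain genes. Cox6a1 held NRF1 matches at positions 89, 90 and 135 of the window, the first pair overlapping on opposite strands, and a GABP match at 235. Its NKX2-5 match at 128 ends where letters of the NRF1 match at 135 begin, so that they form 1 run of capitals. Cox8a held GABP matches at 246 and 283. Cox8b held a TATA match at 255 and Cox7a1 an NKX2-5 match at 250, and neither window held the NRF1 or GABP letters. As 250 bases precede the start, the TATA match of Cox8b lies just after the annotated start and not before it.

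CpG pairs also differed, with 32 in the Cox6a1 window and 19 in that of Cox8a against 7 in Cox7a1 and 2 in Cox8b. RefSeq windows were matched for 72 of the 94 genes (77 windows), with a median of 19 CpG pairs, against 7 over all 32851 windows. The NRF1 motif was in 33.8% of the 77 windows and in 6.31% of all windows, and the GABP motif in 22.1% and 8.86%. The YY1 motif was in 9.09% and 1.40%, and the ERR motif in 3.90% and 1.28%. The NKX2-5 motif was in 10.4% of the windows and in 11.5% of all, the MEF2 motif in 1.30% and 3.11%, and the TATA box in 10.4% and 13.6%. A match describes letters and not binding. The window of Cox7a2, which is not shown, held none of the 7 motifs and 20 CpG pairs.

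The other subunits of cytochrome c oxidase differed less. Cox4i1, the main form of subunit 4, had 842 to 928 CPM in controls, against 871 and 938 CPM in mutants (log2 difference 0.02 ± 0.08). Cox4i2, the form linked to low oxygen, was scarce, with 9.28, 8.84 and 6.40 CPM in the controls, against 9.92 and 11.3 CPM in the mutants (0.38 ± 0.17, adjusted p = 0.24). Ndufa4, once counted with complex I and now placed in complex IV, had overlapping values (566 to 648 CPM in controls, against 589 and 618 CPM in mutants). Its relative Ndufa4l2 also overlapped (22.3 to 30.9 CPM in controls, 27.4 and 26.1 CPM in mutants). Over the 17 tested genes of complex IV, 1 was called higher and 3 lower, and the median log2 fold change was 0.002. That median was -0.03 with scaling by library totals alone and -0.03 without control 6, so it has no settled sign. With library totals alone the median of all tested genes was also -0.03, beside 0.007 in the fit that made the calls.

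Complex II, succinate dehydrogenase, also works in the TCA cycle, and all 4 of its subunits had positive fold changes. Sdhb, on chromosome 4 (140517320 to 140535017, mm9), had 390, 425 and 371 CPM in the controls, against 538 and 486 CPM in the mutants. The groups did not overlap, and the log2 rise was 0.37 ± 0.08 with an adjusted p of 0.036. It was the least stable call, lost with library totals alone and without control 2, control 4, control 6 or mutant 5 (adjusted p up to 0.14). Sdha, the flavoprotein subunit, had 519, 515 and 501 CPM in the controls, against 615 and 574 CPM in the mutants (0.22 ± 0.07, adjusted p = 0.12). The membrane anchors Sdhc and Sdhd overlapped between the groups, with log2 differences of 0.17 ± 0.10 and 0.11 ± 0.08. The median of the 4 was 0.19, and it ranged from 0.10 without mutant 5 to 0.28 without mutant 7.

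In complex III and cytochrome c none of 10 genes passed the test, with a median log2 fold change of 0.17. Cyc1, the cytochrome c1 subunit, had 574, 580 and 540 CPM in the controls, against 761 and 607 CPM in the mutants (0.28 ± 0.10, adjusted p = 0.16), with mutant 5 well above mutant 7. Uqcrfs1, the Rieske iron-sulfur protein, had 455, 459 and 421 CPM against 552 and 488 CPM (0.23 ± 0.08, adjusted p = 0.16). The core proteins Uqcrc1 and Uqcrc2 had log2 differences of 0.22 ± 0.09 and 0.18 ± 0.07. Uqcrh, a small hinge protein, had a difference of -0.002 ± 0.07. Cycs, the electron carrier itself, had 405, 431 and 375 CPM in the controls, against 447 and 457 CPM in the mutants (0.16 ± 0.08, adjusted p = 0.30). In 7 of the 10 genes both mutants lay above all controls, which was true of 18.6% of all tested genes. The median was 0.13 without control 6 and 0.10 without mutant 5.

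Complex I, the largest complex, had no call among 36 subunits and a median log2 fold change of 0.04 (0.016 without control 6, 0.0066 with library totals alone and 0.070 without control 4). Ndufs1, the large iron-sulfur subunit, came nearest, with 452, 460 and 443 CPM in the controls, against 534 and 542 CPM in the mutants (0.25 ± 0.07, adjusted p = 0.063). The groups did not overlap for this gene, whose exons share 248 bases with the opposite-strand Ino80dos. Ndufa10, an accessory subunit, had a difference of 0.23 ± 0.08. The lowest value was that of Ndufa6, with 205, 202 and 186 CPM in the controls, against 181 and 185 CPM in the mutants (-0.11 ± 0.07, adjusted p = 0.41). In a grouping made after the values were seen, the 7 core subunits had a median of 0.17 and the 29 accessory subunits a median of 0.04. The core median was 0.14 without control 6 and 0.066 without mutant 5, and the accessory median was -0.00066 and 0.022. All 7 core subunits have at least 600 coding bases. This contrast thus overlaps the relation with coding length given below and was not separated from it.

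Complex V had no call among 15 subunits and a median of 0.06 (0.018 without control 6, 0.028 with library totals alone, 0.037 without mutant 5 and 0.11 without mutant 7). Its subunits Atp5a1 and Atp5b were the most abundant of all the genes of the set by counts. Atp5a1 had 3248, 3121 and 2997 CPM in the controls, against 3979 and 3574 CPM in the mutants, without overlap (0.27 ± 0.08, adjusted p = 0.092). Atp5b had 4743, 4532 and 4387 CPM against 5427 and 4838 CPM (0.17 ± 0.08, adjusted p = 0.29). The membrane ring subunit c is encoded by 3 genes whose mature proteins are the same. Among them Atp5g3 had a log2 difference of 0.19 ± 0.08, Atp5g1 of 0.10 ± 0.09 and Atp5g2 of -0.08 ± 0.07, and none passed. These genes and others of the chain have close copies or pseudogenes that may share reads, which was not tested.

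Per kilobase of deposited gene length, the highest control levels were those of Cox6b1 (1333 ± 63.8 CPM per kilobase), Cox4i1 (1316 ± 67.1) and Ndufa4 (1240 ± 83.8), each over 3 controls with its SD. Cox6b1 and Cox4i1 differed by less than their spread, whereas Ndufa4 lay below both in each of the 3 controls. Next came Cox6a2 with a mean of 977 and then Atp5b with 864 ± 34.0 CPM per kilobase. In the mutants Cox6a2 stood at 729 ± 18.5 (SD, n = 2), below Atp5b and Cox8a. The order leans on the deposited lengths, which hold more than the coding sequence (5270 bases for Atp5b, whose coding length is 1587 bases).

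Of the 91 tested genes 71 had a positive and 20 a negative log2 fold change with all 5 libraries. The number that were positive was 52 without control 6, 53 with library totals alone and 62 without mutant 5. The median was 0.05, beside 0.007 for all tested genes and 0.03 for the 3243 genes whose mean log2 CPM was 6 or more, a level chosen after the values were seen. Both mutants lay above all controls for 29 genes (31.9%, against 18.6% of all tested genes) and below them for 6 (6.59%, against 19.2%). Control 6 was the lowest library for 72 of the 91 genes, and for these the mutants could not lie below all controls. How far the low share below rests on control 6 was not tested, as these counts were not made without it. At an unadjusted p under 0.05, 17 were higher, against 10.5% of all tested genes, and 3 were lower, against 10.2%. Without control 6 the median was 0.02, beside 0.0099 for all tested genes, and 7 were higher (7.69%, against 9.25% of all genes). With library totals alone the median was 0.018, beside -0.029 for all tested genes, so that scaling lowered both. In that fit 9 were higher (9.89%, against 8.29%). Without mutant 5 the number was 5 (5.49%, against 13.2%), and without mutant 7 it was 26 (28.6%, against 9.27%). It was 10 without control 2 (10.99%, against 7.49%) and 13 without control 4 (14.3%, against 7.99%). The share of higher genes thus lay above that of all genes in the fits without control 2, control 4 or mutant 7 and below it in those without control 6 or mutant 5. The number that were lower at this level was 3 in each of these fits.

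**Figure D3:**
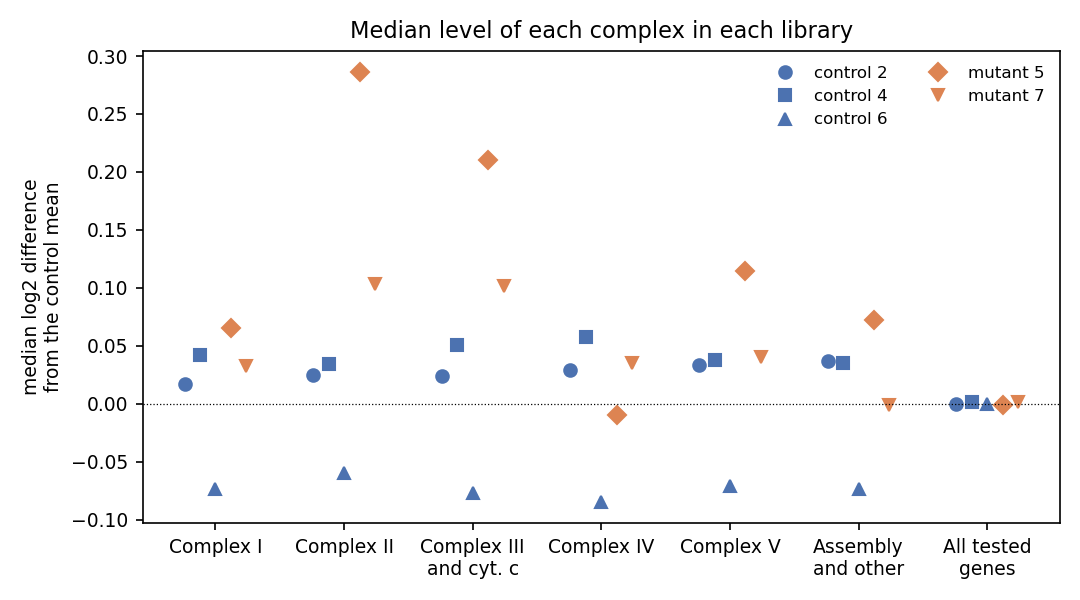
The vertical axis gives, for each library, the median over the genes of a complex of the log2 difference from the control mean. Control 6 is the lowest library in every complex (-0.08 over all members), mutant 5 is highest in complexes I, II, III and V, and the same libraries differ little over all tested genes.

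Longer coding sequences went with higher fold changes, a relation noticed after the values were seen. Over the 82 subunits Spearman's rho between coding length and log2 fold change was 0.43 and Pearson's r with log2 length was 0.43. The 21 subunits with at least 600 coding bases had a median of 0.18, and both mutants lay above all controls for 15 of them and below for none. The 61 shorter subunits had a median of 0.04, with 13 above and 6 below. The shares over all tested genes were 18.6% above and 19.2% below. A gene with its lowest value in control 6 could not count as below, and these counts were not made without control 6. Among the genes at the higher level named above, the same split gave medians of 0.041 for 2644 longer genes and -0.038 for 528 shorter ones. Over 3172 genes of that higher level with a known coding length the rho was 0.28, and over all 14729 tested genes with a coding length it was 0.15 (Pearson's r 0.074). Over the 90 tested genes of the set with a coding length the rho was 0.47 for mutant 5 and 0.19 for mutant 7, each against the control mean. For each control against the other controls it was 0.04 for control 2, -0.22 for control 4 and 0.31 for control 6. These are correlations across genes measured in the same libraries, and genes are not independent replicates. The part of RNA quality or library preparation in this relation was not tested.

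**Figure D4:**
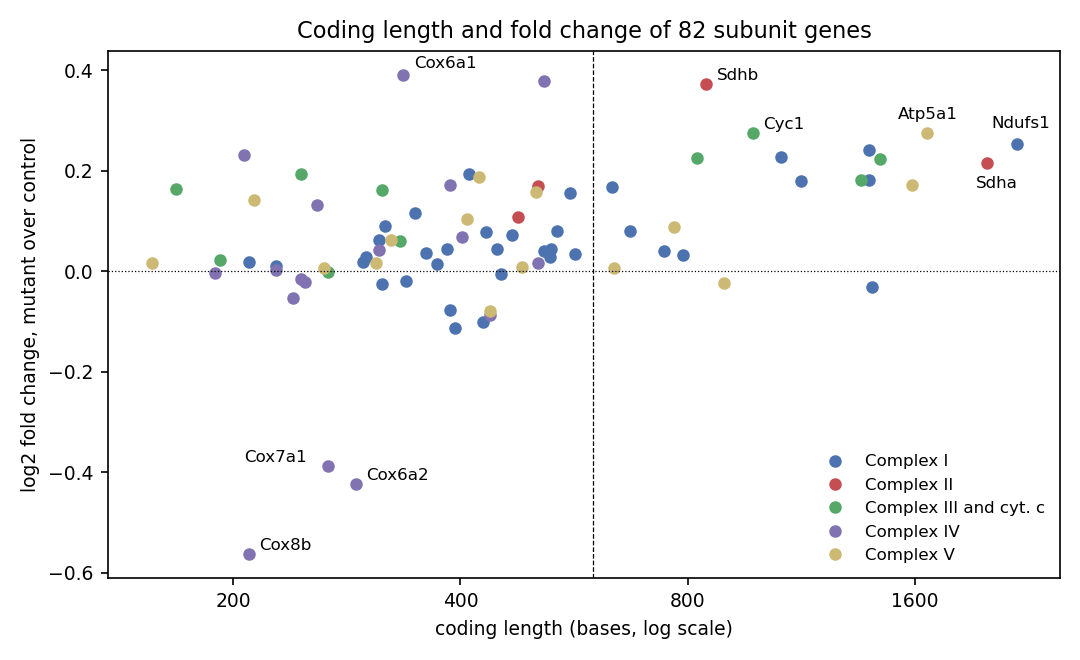
Each point is 1 of 82 subunit genes, with coding length in bases on a log axis and log2 fold change of mutant over control on the vertical axis, coloured by complex, and the dashed line marks 600 bases. The long subunits lie mostly above 0 (median 0.18), the 3 muscle isoforms are short and lie lowest, and Cox6a1 is a short gene that lies high.

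Other genes of the pathway were read from the same fit, in which 3.02% of all tested genes were called higher and 3.57% lower. Of 38 tested assembly factors outside the set, 1 was called higher and none lower. It was Lrpprc, which stabilises mitochondrial mRNAs, with 81.3 to 83.3 CPM in the controls, against 104 and 98.8 CPM in the mutants (0.30 ± 0.06, adjusted p = 0.020), a gene that did not pass without control 2 or control 4 (adjusted p up to 0.097). Of 21 regulators of mitochondrial biogenesis, 1 was higher and 1 lower. Perm1, a muscle protein induced by PGC-1 and ERR that promotes oxidative gene expression, had 10.1, 8.52 and 8.74 CPM in the controls, against 4.04 and 5.52 CPM in the mutants (-0.94 ± 0.17, adjusted p = 0.014), and its call was kept in all 12 alternative fits. Ppargc1b, a coactivator of the PGC-1 family, had 10.1 to 13.4 CPM in the controls against 17.1 and 19.8 CPM (0.64 ± 0.13, adjusted p = 0.025), which no longer passed without control 2, control 4 or mutant 7.

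Of 18 TCA cycle and pyruvate dehydrogenase genes, 3 were called higher and none lower, against 3.02% and 3.57% of all tested genes. Their median log2 fold change was 0.17, with 16 positive and 2 negative. The 3 called higher were Dld (0.31), Dlst (0.31) and Idh3b (0.30), which take part in oxidative decarboxylation. Each lost its call in 6 of 12 alternative fits. These included library totals alone, sex as a covariate, and leaving out control 2, control 4 or control 6. Cs, citrate synthase, had 797, 793 and 766 CPM in the controls, against 1029 and 883 CPM in the mutants (adjusted p = 0.090). Idh2 went the other way, with 1515, 1356 and 1446 CPM in the controls, against 1259 and 1056 CPM in the mutants. Its log2 difference was -0.31 ± 0.10 (adjusted p = 0.098), and both mutants lay below all controls. None of the 13 subunits encoded by the mitochondrial genome passed with all 5 libraries. Their median log2 fold change was 0.27, and it was 0.55 without mutant 5 and -0.17 without mutant 7. Their summed level was 48079, 57584 and 49877 CPM in the controls, against 48036 and 76924 CPM in the mutants, so mutant 7 was high and mutant 5 lay just below the lowest control. Among the nuclear genes of the set, mutant 5 was above mutant 7 for 61 of 91.

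Whole atria hold several cell types, and in bulk tissue fewer cells of a type and less RNA per cell cannot be told apart. None of 12 atrial or shared cardiomyocyte markers passed, with a summed level of 44976 to 48080 CPM in controls, against 47128 and 51194 CPM in mutants. Of 5 epicardial markers 4 were lower (summed 942 to 1113 CPM in controls, 648 and 647 CPM in mutants), and of 6 fibroblast markers 2 were lower (8776 to 10320 CPM, against 7020 and 6919 CPM). Of 4 smooth muscle markers 1, Acta2, was higher (611 to 756 CPM summed, against 2050 and 1596 CPM). Most of that sum in the mutants was Acta2 (366 to 435 CPM in controls, 1693 and 1244 CPM in mutants). Tagln and Cnn1 overlapped between the groups, and Myh11 lay above all controls in both mutants without passing. Of 7 erythroid markers 1 was higher (1114 to 1461 CPM, against 1786 and 1752 CPM). Of 6 endothelial markers 1 was higher (1213 to 1292 CPM, against 1378 and 1684 CPM). Of 5 tested leukocyte markers 1 was higher (115 to 134 CPM, against 144 and 147 CPM). For these lists and those that follow, the shares over all tested genes were 3.02% called higher and 3.57% called lower. The part of these cell types in the results was not tested.

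Skeletal muscle and brown fat also use the muscle isoforms. Of 9 tested skeletal muscle markers Tnnt3 was higher, Pvalb and Actn3 were lower, and the defining factor Myod1 had no count in any library. The summed level of these markers was 135 to 158 CPM in controls, against 1114 and 1140 CPM in mutants, nearly all of it Tnnt3 in the mutants (1020 and 1085 CPM). Of 3 tested brown fat markers Cidea was higher, and the defining gene Ucp1 had 0 counts in the controls and 1 count in each mutant (10.2 to 11.7 CPM summed in controls, 14.1 and 14.5 CPM in mutants). Of 5 ventricular markers the factor Hey2 was higher and none was lower, while the summed level was 91.4 to 250 CPM in controls, against 79.7 and 60.2 CPM in mutants. Most of that sum was the myosin light chains Myl3 (124, 67.2 and 145 CPM in controls 2, 4 and 6, against 22.3 and 15.4 CPM, adjusted p = 0.076) and Myl2 (22.3, 16.3 and 95.9 CPM, against 18.5 and 8.26 CPM, adjusted p = 0.53). Irx4 also had a negative log2 difference (-1.49), and none of the 3 passed. Control 6 held the most Myl3 and Myl2 of all libraries.

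The remaining genes of the set were scarce or near 0 change. The 9 matching symbols that are not subunits had no call, with log2 fold changes from -0.05 to 0.28 and a median of 0.05. Cox6b2, a testis form of subunit 6b, had 4.70 to 7.46 CPM in controls, against 6.01 and 6.21 CPM in mutants. The 3 genes not tested were Cox7b2 with 1 to 3 counts per library, Cox8c with none in any library, and a second entry under the symbol Ndufb8 with 2 to 4 counts. In the reference annotation exons of 23 genes of the set overlap a gene of the other strand, and strand use in counting was not stated in the sources read here.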

How the data were processed

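RNA of mouse atria was sequenced as polyA libraries. The table deposited by the authors gives raw counts for each library, RPKM pooled per group, and their own log2 ratios, p-values and adjusted p-values. Per the submitters' processing notes HTSeq 0.5.4p3, TopHat2 2.0.4 and DESeq were used with build mm9. The counts, leaving out entries that name no gene (no_feature 3.97 to 6.03% and ambiguous 2.31 to 3.18% of all counts), were fitted with edgeR 4.0.16 in R 4.3.3. The fit used filterByExpr (minimum count 10, minimum total 15), TMM scaling, a robust quasi-likelihood test, Benjamini-Hochberg adjustment over 17835 genes and a prior count of 0.125. CPM are counts over TMM-scaled totals. Named genes are Nkx2-5, the isoform genes of complexes IV and V, complex II and Cycs, every called gene, and in each complex the smallest p-values, the extreme fold changes and the highest level; other lists give up to 4 genes of smallest p. Not every gene this rule names is given. Cox6b1, Cox6b2, Uqcrc1, Idh2, untested and non-subunit genes, marker genes and genes sharing exons were named outside it, after their values were seen.

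Isoform shares used the deposited gene length and not the coding length as planned, which leaves the log2 ratio test unchanged. Coding lengths and exon overlap came from GENCODE vM21 (GRCm38), matched by identifier, and promoter sequences from RefSeq. On simulated data with the real means, log2 changes of 0.4, 1.0 and 2.0 were given to 66, 67 and 67 of 17835 genes. Of these 4.55, 67.2 and 91.0% were recovered, and 12 unchanged genes were called, a number to be read against those recovered. The changed genes were drawn from all levels, so recovery at the levels of this set was not tested. Alternatives were other scalings and filters, DESeq2 1.42.0, limma-voom (limma 3.58.1), a threshold of 0.01 and leaving out each library. Others were subunits only and sex as a covariate, with sex read from Xist and Y-linked genes in the libraries. Control 4 and mutant 5 were male, and controls 2 and 6 and mutant 7 were female. The genes and lists were chosen with earlier results of these data known.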

Additional observations from a re-analysis of the deposited data

How the results depend on the processing

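With all 17835 genes in the test, 1174 were called; DESeq2 called 2004, a threshold of 0.01 left 391, and leaving out 1 library gave 529 to 1714. Respiratory chain genes called higher numbered 2, against 8 by DESeq2 (Atp5a1, Cox8a, Ndufs1, Sdha and Uqcrc2 among those added), 1 with library totals alone and 0 at a threshold of 0.01. Leaving out 1 library gave 0 to 4, with 0 without control 2, control 4 or control 6, 1 without mutant 5 and 4 without mutant 7. Those called lower numbered 3, with 1 (Cox8b) at a threshold of 0.01 and 1 to 3 when 1 library was left out, the value being 1 without control 2 or control 4 and 2 without mutant 7. The median log2 fold change of the set kept its sign in each alternative and ranged from 0.018 to 0.084. The value of 0.018 was with library totals alone, where the median of all tested genes was -0.029. The isoform ratios kept their direction when any library was left out, with log2 changes of -0.74 to -0.88 for subunit 6a, -0.28 to -0.45 for subunit 7a and -0.66 to -0.92 for subunit 8, though a test on 4 libraries cannot reach 0.05. Sex as a covariate left 2 higher and 3 lower. In that edgeR fit 12 were higher at an unadjusted p under 0.05 (13.2%, against 10.4% of all tested genes), beside 17 without the covariate.

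Some genes without a call changed sign. With library totals alone Cox4i1 was at -0.018 and Ndufa4l2 at -0.015, in a fit where the median of all tested genes was -0.029. With no filter Uqcrh was at 0.0019. When 1 library was left out, the log2 fold change ranged from -0.131 to 0.028 for Atp5sl, from -0.038 to 0.065 for Cox4i1, from -0.058 to 0.019 for Cox7a2, from -0.063 to 0.026 for Ndufa4, from -0.084 to 0.149 for Ndufa4l2, from -0.0032 to 0.286 for Ndufaf1 and from -0.038 to 0.031 for Uqcrh. The cause of these shifts was not tested. With a group reduced to 1 library, that library was assumed to vary like the others. No paired analysis was possible because the groups share no replicate number. With 3 against 2 libraries the data bear mainly on the larger changes.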
